A study of Mus musculus with 21 samples.

Results

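Of the 6077 genomic intervals listed as reproducible Cbfa2t3 peaks in *Ebf1*-deficient lymphoid progenitors (LPs), 2367 were annotated as intergenic, and 1832 of these shared no base with any of the 5898 Zbtb1 peaks of the same cells. These 1832 intergenic Cbfa2t3-only peaks are described here. They were chosen from the peak calls themselves, so their lack of overlap with Zbtb1 is a matter of selection, and "only" refers to these 2 lists alone. No signal tracks were analysed here, and Zbtb1 signal below the peak threshold in these regions was not measured. The other 535 intergenic Cbfa2t3 peaks shared at least 1 base with a Zbtb1 peak. The share of unshared peaks was 77.4% among intergenic peaks, 77.4% among intronic peaks and 67.0% among promoter peaks.

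The LPs are 1 mouse cell line that lacks Ebf1, a transcription factor needed for B-cell commitment, and that is kept on OP9 stromal cells with SCF, IL-7 and Flt3 ligand. ChIP-seq for each factor was done on 2 replicates of these cells without Notch stimulation, and a single list per factor was deposited, so that no replicate error can be given for a peak. Per the labels, each Cbfa2t3 replicate used a mixture of 2 antibodies, and the catalogue number of 1 of them differs in its last digit between the replicates. The methods of the study name a single mixture, with the catalogue number that the labels give for the first replicate. For expression, 15 QuantSeq libraries, which read mRNA near its 3′ end, were made from the same line. All carried Cas9-GFP and a pool of 2 sgRNAs and were sorted on day 5. The 5 groups of 3 libraries received sgRNAs against *Cbfa2t3* (sgCbfa2t3), *Zbtb1* (sgZbtb1), *Cbfa2t2* (sgCbfa2t2), *Lmo2* (sgLmo2) or luciferase (sgCont).

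Cbfa2t3, also called ETO2 or MTG16, is a corepressor of the ETO family. It is not known to recognise a DNA sequence on its own and is brought to DNA by other proteins, among them the E proteins and their partners Tal1 and Lyl1, which bind the E-box (CANNTG) and are joined by the bridging factor Lmo2. Zbtb1 is a BTB and zinc finger protein needed for lymphoid development. Runx factors, which bind TGTGGT, and ETS factors, which bind sequences with a GGAA core, are common partners at hematopoietic enhancers, and many such enhancers lie between genes.

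To show what these peaks look like as sequence, 7 windows of 200 bp around the peak centre are printed, all from the plus strand of GRCm38 (mm10), 5′ to 3′. They are the windows of the 4 highest-scoring peaks on autosomes that are not copies of each other, and of the highest-scoring peaks nearest *Cbfa2t3*, *Ccr9* and *Dntt*. Capitals mark the Runx core TGTGGT, the E-box CAGCTG, the E-box CAGGTG and the E-box CAGATG. Matches on the other strand are also in capitals and read ACCACA for the Runx core, CACCTG for CAGGTG, or CATCTG for CAGATG.
Tcra/Tcrd locus, on the V segment Trav15d-1-dv6d-1, chr14:52863964-52864163: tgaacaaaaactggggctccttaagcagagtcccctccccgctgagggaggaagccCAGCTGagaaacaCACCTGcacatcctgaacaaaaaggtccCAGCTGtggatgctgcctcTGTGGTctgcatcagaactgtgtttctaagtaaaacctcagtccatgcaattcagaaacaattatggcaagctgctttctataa
9099 bp upstream of Prss38, chr11:59384653-59384852: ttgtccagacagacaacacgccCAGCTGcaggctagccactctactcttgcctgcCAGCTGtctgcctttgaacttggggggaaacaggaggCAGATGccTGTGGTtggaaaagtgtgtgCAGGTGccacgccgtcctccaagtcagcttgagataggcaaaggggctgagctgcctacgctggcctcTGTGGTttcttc
no named gene in the list, chr7:67500510-67500709: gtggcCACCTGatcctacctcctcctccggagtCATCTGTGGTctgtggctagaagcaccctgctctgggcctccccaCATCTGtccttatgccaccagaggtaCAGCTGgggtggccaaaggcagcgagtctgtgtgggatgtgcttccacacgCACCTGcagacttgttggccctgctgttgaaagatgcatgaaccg
11809 bp downstream of the start of Btg2, chr1:134067247-134067446: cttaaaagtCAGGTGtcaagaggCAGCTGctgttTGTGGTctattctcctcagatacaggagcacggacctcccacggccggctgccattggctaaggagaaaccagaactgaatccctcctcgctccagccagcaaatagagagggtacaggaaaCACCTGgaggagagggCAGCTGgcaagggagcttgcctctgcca
2898 bp upstream of Cbfa2t3, chr8:122701908-122702107: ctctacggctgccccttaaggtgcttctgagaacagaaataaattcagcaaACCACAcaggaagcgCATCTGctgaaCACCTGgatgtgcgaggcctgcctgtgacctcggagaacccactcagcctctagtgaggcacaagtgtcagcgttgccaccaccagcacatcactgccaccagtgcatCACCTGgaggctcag
12644 bp upstream of Ccr9, chr9:123754468-123754667: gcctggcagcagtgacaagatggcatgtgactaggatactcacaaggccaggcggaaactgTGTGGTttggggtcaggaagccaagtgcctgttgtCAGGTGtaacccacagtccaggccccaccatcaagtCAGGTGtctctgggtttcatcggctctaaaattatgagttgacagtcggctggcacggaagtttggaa
6882 bp upstream of Dntt, chr19:41022294-41022493: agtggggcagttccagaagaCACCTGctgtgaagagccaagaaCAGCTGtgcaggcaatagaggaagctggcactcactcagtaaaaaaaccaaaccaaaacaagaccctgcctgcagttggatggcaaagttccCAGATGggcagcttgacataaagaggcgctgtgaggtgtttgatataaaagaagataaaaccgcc
The *Prss38* window held 2 Runx cores and 4 of these E-boxes, with 1 Runx core 3 bp from the centre. The *Dntt* window held 3 E-boxes, 1 of each form, and no Runx core. The *Ccr9* window held 2 CAGGTG boxes and 1 Runx core, and no CAGCTG. In the window on chromosome 7 the Runx core overlapped the end of an E-box in the capitals CATCTGTGGT. These windows were chosen by score or by gene and are examples, since a match of letters does not show which protein was bound.

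The peak score is the number of reads at the peak after the authors' normalization by HOMER. Among the intergenic Cbfa2t3-only peaks its median was 33.0 (quartiles 25.1 and 50.5), and it ranged from 20.6 to 1273.5. The median was 48.4 in the intergenic peaks shared with Zbtb1, 32.0 in the intronic Cbfa2t3-only peaks, and 27.6 in the promoter Cbfa2t3-only peaks. The intergenic Cbfa2t3-only peaks were thus closer in score to the intronic ones than to the shared intergenic ones. All peaks had the same width of 378 bp as deposited.

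Most of these peaks lay far from a start site. The median distance from the peak to the nearest annotated start site was 24924 bp (quartiles 10450 and 62112 bp). Only 437 peaks (23.9%) lay within 10 kb, and 268 (14.6%) lay more than 100 kb away. The nearest start site was downstream of the peak, so that the peak lay on its upstream side, for 1177 peaks (64.2%). The medians were 20320 bp in the shared intergenic peaks and 21310 bp in the intergenic Zbtb1-only peaks.

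**Figure D1:**
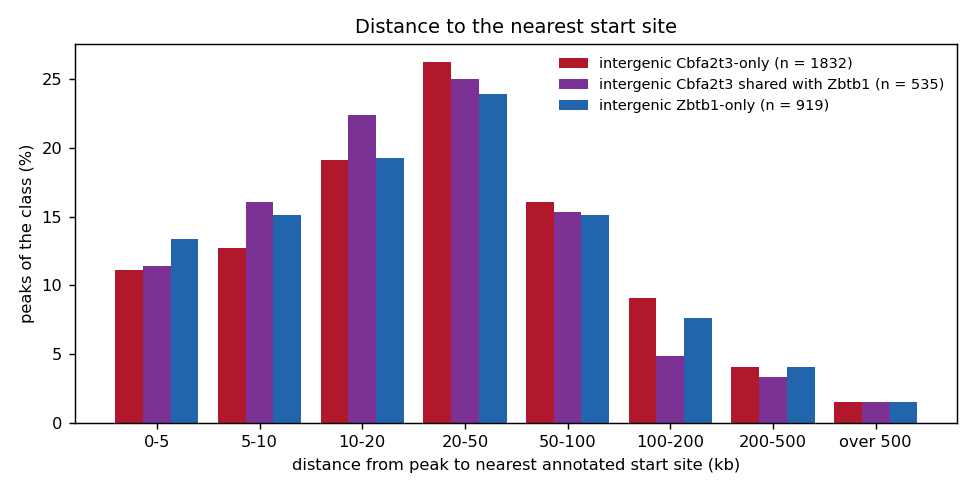
Percentage of peaks by distance to the nearest annotated start site (kb, horizontal axis) for intergenic Cbfa2t3-only peaks (red, n = 1832), intergenic Cbfa2t3 peaks shared with Zbtb1 (purple, n = 535) and intergenic Zbtb1-only peaks (blue, n = 919). In all 3 classes the tallest bar is at 20 to 50 kb, with 26.3% of the Cbfa2t3-only peaks, and at 100 to 200 kb the Cbfa2t3-only bar stands at 9.06%.

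Distance to the other factor was described in the same way. The median gap from an intergenic Cbfa2t3-only peak to the nearest Zbtb1 peak was 52581 bp. A Zbtb1 peak lay within 100 bp of 7 of them, within 1 kb of 51 (2.78%), within 10 kb of 342 (18.7%) and within 100 kb of 1246 (68.0%). Just inside the rule were the peaks nearest *Mir205* (gap 11 bp, score 35.9), *1700029F12Rik* (gap 16 bp, score 27.2) and *Ikzf1* (gap 20 bp, score 45.1). Just outside it were peaks nearest *Btg2* (9 shared bases, score 179), *Mir3089* (9 shared bases, score 58.7) and *Zfp316* (10 shared bases, score 28.3). The members were therefore mostly far from any Zbtb1 peak, with few near the edge of the rule. Another Cbfa2t3 peak of any class lay within 10 kb of 642 of them (35.04%).

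Repeat content differed between the classes, as a description over peaks. The centre of the peak lay in an annotated repeat in 365 intergenic Cbfa2t3-only peaks (19.9%), against 117 of the 535 shared intergenic peaks (21.9%) and 367 of the 919 intergenic Zbtb1-only peaks (39.9%). LTR elements, the remains of endogenous retroviruses, held 12.9% of the Cbfa2t3-only peaks, 11.6% of the shared intergenic peaks and 8.16% of the Zbtb1-only peaks. The largest LTR families among the Cbfa2t3-only peaks were ERVL-MaLR (77 peaks), ERVK (71), ERV1 (56) and ERVL (30). Simple repeats held 0.491% of the Cbfa2t3-only peaks and 21.4% of the Zbtb1-only peaks. The median GC content of the 200 bp windows was 52.0% in both of these classes.

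The peaks were spread over all chromosomes. On autosomes there were 4.19 peaks per 10 Mb on chromosome 3 at the lowest and 11.3 per 10 Mb on chromosome 17 at the highest, while the X chromosome had 0.936 and the Y chromosome 1.09 per 10 Mb. The 3 highest scores of all were on the sex chromosomes, near *G530011O06Rik* and *Erdr1*, in copies of 1 sequence. The windows of the X peak and of the first Y peak were identical and both had a score of 1273.5, and the second Y peak had 681.8. The authors kept reads with up to 10 places in the genome, so a read from such a copy could count at each of them. In all, 43 of the peaks had a window identical to that of another of these peaks, in 21 sets, of which 10 sets had the same score at every place. The 1831 peaks on the main chromosomes thus held 1809 different windows.

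The E-box was the sequence found most often. In the 200 bp windows of the 1831 peaks, searched on both strands, at least 1 E-box of the forms CAGCTG, or CAGGTG, or CAGATG was present in 83.8% (exact 95% binomial interval 82.1% to 85.5%), compared with 34.97% of the 3606 windows taken 5 kb to either side. CAGCTG was in 49.5% (47.2% to 51.8%) against 9.15% in the flanks. CAGGTG was in 43.1% (40.8% to 45.4%) against 15.6%, and CAGATG in 34.6% against 15.2%. All 3 are forms of CANNTG, which was in 92.7% of the windows and 68.9% of the flanks. The intervals cover counting over peaks only, and neighbouring peaks are not independent.

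**Figure D2:**
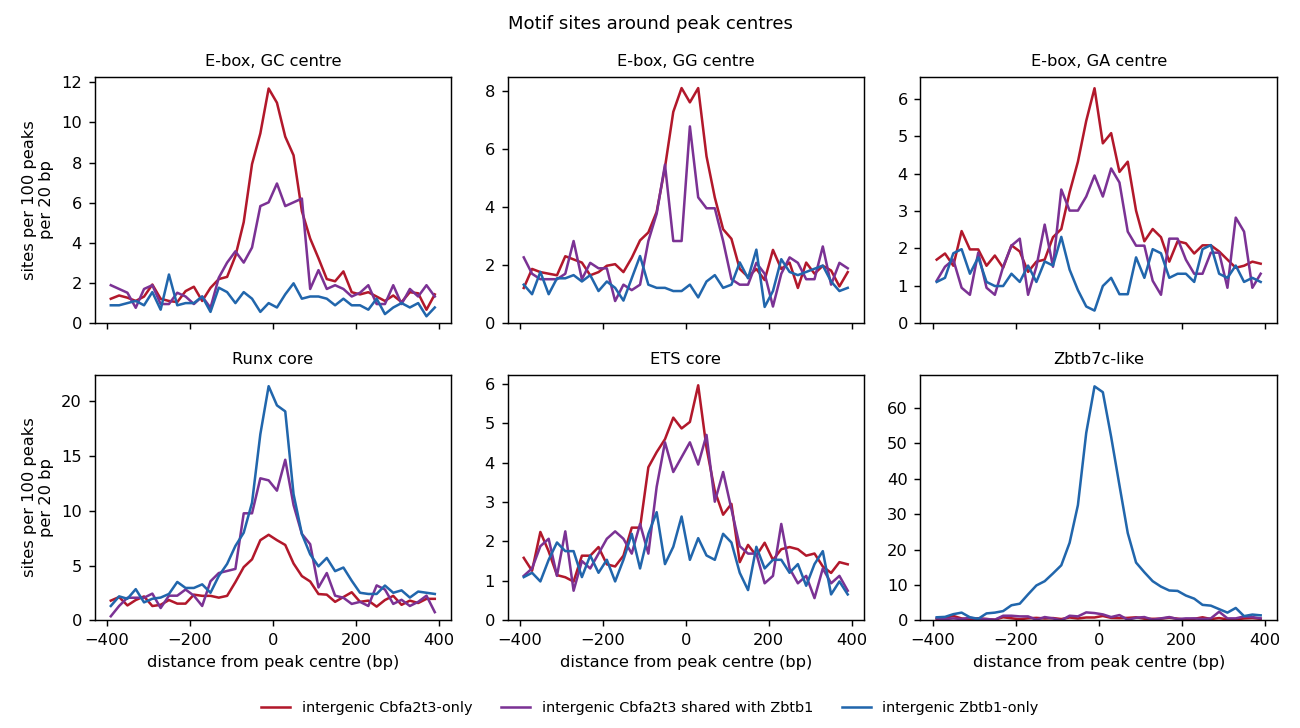
Number of matches per 100 peaks in 20 bp bins (vertical axis, scaled separately in each of 6 panels) by distance from the peak centre (bp, horizontal axis), both strands, in intergenic Cbfa2t3-only (red), shared (purple) and Zbtb1-only (blue) peaks. In the Cbfa2t3-only peaks the E-box with a GC centre (CAGCTG) reaches 11.7 in the bin before the centre and lies between 0.656 and 1.91 beyond 200 bp, and the Runx core reaches 7.81, below the 21.4 of the Zbtb1-only peaks. Every copy counts, and single 200 bp windows held up to 30 Runx cores in the Zbtb1-only peaks and 7 in the Cbfa2t3-only peaks.

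Matches were most frequent at the peak centre. CAGCTG was found 11.7 times per 100 peaks in the 20 bp before the centre and 10.98 times in the 20 bp after it. The corresponding values were 8.09 and 7.60 for CAGGTG, and 6.28 and 4.81 for CAGATG. Each of these stood above the bins beyond 200 bp, where the highest value was 1.91 for CAGCTG, 2.51 for CAGGTG and 2.46 for CAGATG. The Runx core had 7.81 and 7.32 at the centre and at most 2.24 beyond 200 bp.

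E-boxes also distinguished these peaks from those of Zbtb1. CAGCTG was in 10.9% of the intergenic Zbtb1-only windows, 38.6 percentage points fewer than in the Cbfa2t3-only windows (Newcombe 95% interval of the difference, 35.4 to 41.5). In the intergenic peaks shared by both factors it was in 37.1%, 12.4 points fewer (7.64 to 17.0). The intronic Cbfa2t3-only windows held CAGCTG in 51.4% and the promoter ones in 45.8%, and both intervals of the difference included 0. For CAGGTG the Cbfa2t3-only windows were 32.9 points above the Zbtb1-only windows (29.8 to 35.8) and 10.3 points above the shared ones (5.65 to 14.8). Against the intronic Cbfa2t3-only peaks the difference in CAGGTG was −3.33 points (−6.49 to −0.153), so that the intergenic windows had fewer. Promoter Cbfa2t3-only windows held CAGGTG in 43.3%, and the interval of the difference included 0.

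The Runx core was less frequent in these peaks than in those of Zbtb1. TGTGGT was in 42.4% of the intergenic Cbfa2t3-only windows (40.1% to 44.7%) against 14.8% of their flanks, a difference of 27.6 points (25.1 to 30.1). It was in 66.1% of the shared intergenic windows and 56.2% of the Zbtb1-only windows. The Cbfa2t3-only windows thus fell short of the shared ones by 23.7 points (19.0 to 28.2) and of the Zbtb1-only ones by 13.8 points (9.84 to 17.7). The intronic Cbfa2t3-only windows had 43.2% and the promoter ones 18.4%. At least 2 Runx cores were present in 186 (10.2%) of the intergenic Cbfa2t3-only windows, 26.8% of the shared ones and 28.9% of the Zbtb1-only ones. A single window held up to 7 Runx cores in the Cbfa2t3-only class and up to 30 in the Zbtb1-only class. Simple repeats held 21.4% of the Zbtb1-only peaks and 0.491% of the Cbfa2t3-only peaks, and Runx cores inside repeats were not separated in this comparison.

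**Figure D3:**
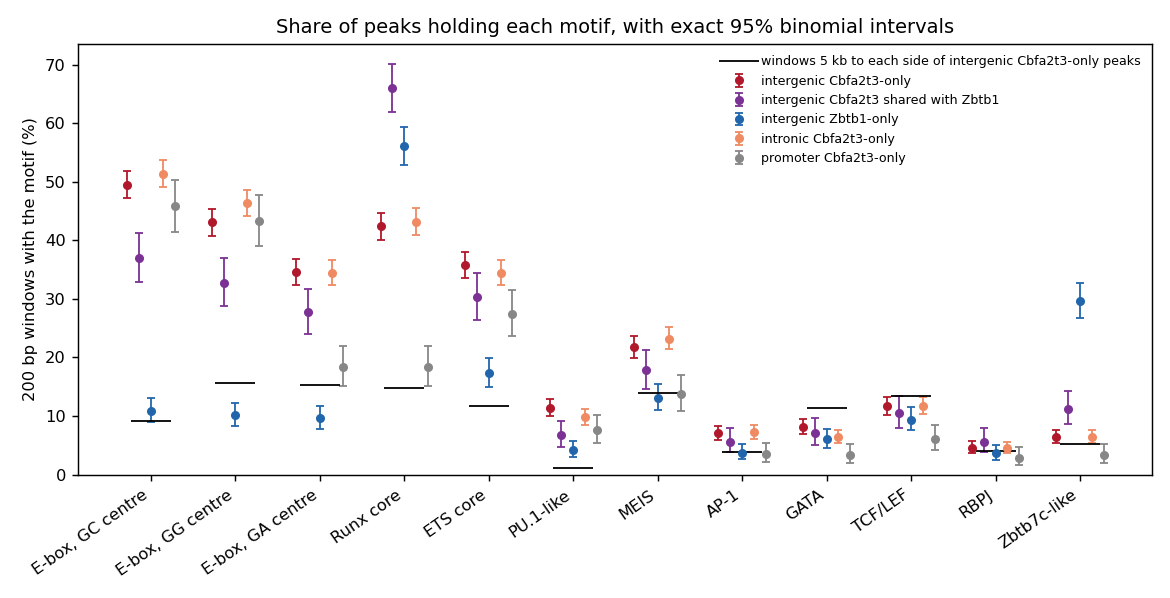
Percentage of 200 bp windows that hold each motif (vertical axis) in intergenic Cbfa2t3-only (red), shared (purple) and Zbtb1-only (blue) peaks and in intronic (orange) and promoter (grey) Cbfa2t3-only peaks, with exact 95% binomial intervals and black lines for the windows 5 kb to each side of the intergenic Cbfa2t3-only peaks. The E-box with a GC centre stands at 49.5% in the Cbfa2t3-only peaks and 10.9% in the Zbtb1-only peaks, and the Runx core at 42.4% and 56.2%.

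Both kinds of motif were often in the same window. A Runx core together with at least 1 of the 3 E-boxes was in 35.4% of the intergenic Cbfa2t3-only windows and 5.82% of the flanks. A further 48.4% had an E-box without a Runx core, 6.94% had a Runx core without an E-box, and 9.23% had neither, compared with 56.1% of the flanks. The E-box was as common with a Runx core as without: it was in 83.6% of the windows that had one and in 84.0% of those that had none. In the Zbtb1-only peaks 37.6% of the windows had a Runx core alone and 9.51% had an E-box alone.

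ETS sequences were the next group. GGAAGT was in 35.8% of the intergenic Cbfa2t3-only windows and 11.8% of the flanks, against 30.3% of the shared and 17.4% of the Zbtb1-only windows. The longer form GAGGAAGT, which contains GGAAGT and is of the kind bound by PU.1, was in 11.4% (9.99% to 13.0%) and 1.19% of the flanks. This was 4.67 points above the shared windows (1.86 to 7.07) and 7.26 points above the Zbtb1-only windows (5.23 to 9.16). The intronic Cbfa2t3-only windows held GGAAGT in 34.5% and GAGGAAGT in 9.84%, and both intervals of the difference included 0. The promoter Cbfa2t3-only windows held them in 27.5% and 7.54%. Runx core, E-box and GGAAGT occurred together in 12.1% of the intergenic Cbfa2t3-only windows and 0.582% of their flanks. None of the 3 was in 4.92% of the intergenic Cbfa2t3-only windows.

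Other sequences stood closer to the flanks. TGACAG, of the kind bound by MEIS factors, was in 21.7% of the windows and 14% of the flanks, and TGAGTCA, bound by AP-1, in 7.10% and 3.94%. AGATAA, the GATA sequence, was in 8.14% of the windows, less than the 11.4% of the flanks (difference 1.59 to 4.85 points). CTTTGA, bound by TCF and LEF factors, was in 11.7% and 13.4%, and GTGGGAA, bound by RBPJ, in 4.59% and 4.05%, with intervals of the difference that included 0. The composite of an E-box end and a GATA site, CTGNNNNNNNNGATAA, which contains GATAA of the GATA sequence, was in 5 windows (0.273%) and in 0.610% of the flanks. TGGTGGT, which resembles the Zbtb7c motif, was in 6.44% of the windows and 5.24% of the flanks, but in 29.6% of the Zbtb1-only windows. It can share letters with a Runx core, and the overlap of these matches was not separated. The flanks were not matched to the windows for GC content, which was not measured in the flanks. A low share of a sequence is a statement about these letters in 200 bp and not about the protein that binds them.

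E-boxes were most frequent in the peaks with the highest scores. When the peaks were placed in 4 groups of like size by score, CAGCTG was in 40.4% of the lowest group, 45.6% of the next, 51.0% of the one after and 60.9% of the highest. CAGGTG was in 38.4%, 37.6%, 40.7% and 55.7%, and CAGATG in 30.1%, 29.9%, 35.4% and 42.8%. The difference was thus mainly between the highest group and the rest, except for CAGCTG, which was more frequent in each group than in the one below it. The Runx core was in 38.6%, 39.5%, 47.0% and 44.3%, and GGAAGT in 35.2%, 32.5%, 41.6% and 33.8%. These are descriptions over peaks of 1 pooled list.

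**Figure D4:**
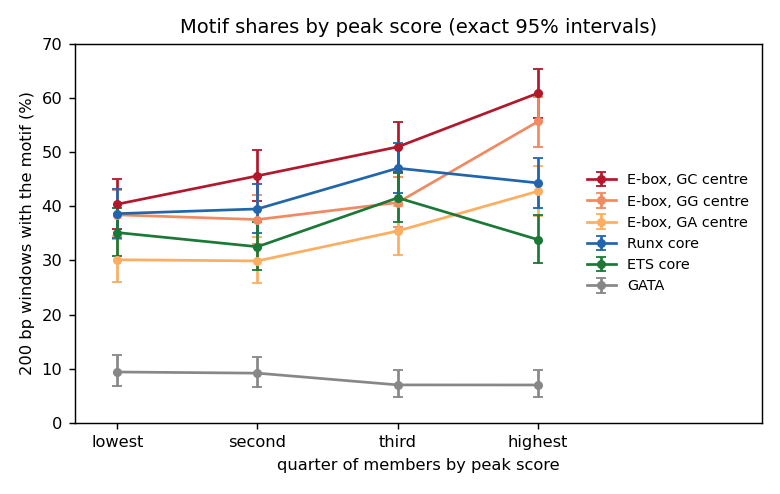
Percentage of 200 bp windows of the intergenic Cbfa2t3-only peaks that hold each motif (vertical axis) in 4 groups of the peaks by score (horizontal axis, lowest to highest), with exact 95% binomial intervals. The E-box with a GC centre goes from 40.4% to 60.9%, and the GATA sequence stays between 6.99% and 9.39%.

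Antigen receptor loci held many of these peaks. From the outermost annotated segments of each locus in GENCODE vM21, 47 peaks (2.57%) lay in 6 receptor loci that span 8.76 Mb together, or 5.36 per Mb, compared with 0.672 per Mb over all main chromosomes. The 3 T-cell receptor loci had 32 of them and the 3 immunoglobulin loci 15. Cbfa2t3 peaks of any class in these loci numbered 58, or 6.62 per Mb compared with 2.23 per Mb over all main chromosomes, and Zbtb1 peaks 18. The difference in density was thus smaller for all Cbfa2t3 peaks than for those classed as intergenic and Cbfa2t3-only, which made up 81.0% of the Cbfa2t3 peaks in the loci and 30.2% over all main chromosomes. Of the 47 windows, 42 had 1 or more of the 3 E-boxes and 28 had a Runx core, and 24 of the peaks lay on a gene segment itself, although the deposited annotation classes them as intergenic.

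The *Tcra* and *Tcrd* locus, at chr14:52427928-54224206, encodes the alpha and delta chains and had 23 of the peaks. Its highest scores were on V segments of the Trav15 family. They were 488.6 at *Trav15n-1*, 488.6 at *Trav15d-1-dv6d-1*, 325.2 at *Trav15-1-dv6-1* and 244.7 at *Trav15-2-dv6-2*, and the first pair had identical windows. The 23 peaks had 17 different windows, all of the 23 with an E-box and 13 with a Runx core. The V segments of this locus are duplicated in the mouse genome, and which copy the reads came from cannot be told apart. Peaks also lay on *Trdd2* (score 50.3), a D segment of the delta chain, and 1986 bp from *Trdd1* (score 56.2).

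The *Tcrg* locus, which encodes the gamma chain, had 7 peaks in 175 kb, or 40.1 per Mb, and no Zbtb1 peak. Their scores were 24.6 to 72.8, and the 3 highest lay 2607 bp from *Tcrg-C1*, 3650 bp from *Tcrg-C2* and 9083 bp from *Tcrg-C3*, the constant segments. In the deposited annotation the nearest gene of all 7 is *Stard3nl*, so that gene counts do not show this locus. The *Tcrb* locus had 2 peaks (scores 54.8 and 54.3), both near *Trbv21*. The window of the first was identical to that of a peak near *Cks2* on chromosome 13 (score 47.1) and the window of the second to that of a peak on chromosome 19 (score 57.4), so that the place of their reads cannot be told apart. The heavy chain locus *Igh* had 11 peaks with scores of 20.8 to 40.8, *Igk* had 3 and *Igl* had 1. Most of the peaks in T-cell receptor loci were thus in the alpha, delta and gamma loci.

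A nearest gene with a name was given for 1695 of the peaks, which made 1239 different genes, of which 947 had 1 peak, 260 had 2 or 3, and 32 had 4 or more. The genes with most peaks were *Gm17746* (9), *Stard3nl* (8), *Rplp1* (7), *Cd47* (7), *Pik3r1* (6), *Dad1* (6), *C130026L21Rik* (6) and *Mir6388* (6). All 6 peaks of *Dad1* lay in the *Tcra* and *Tcrd* locus and all 6 of *Mir6388* in *Igh*, as did 7 of the 8 of *Stard3nl* in *Tcrg*, so that these are the peaks of the receptor loci counted under a neighbouring gene. *Cd47* encodes a surface protein that protects cells from phagocytosis, and *Pik3r1* a regulatory subunit of PI3 kinase. Genes with 5 peaks included *Irf8*, a transcription factor of myeloid and lymphoid progenitors, and *Ly86*, and those with 4 included *Runx1*, *Runx3* and *Socs1*. With a later annotation, GENCODE vM21, 448 of the peaks (24.5%) shared a base with a gene, of which 224 (12.2%) with a lncRNA gene and 180 (9.83%) with a protein-coding gene. Intergenic therefore refers to the authors' annotation.

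Several of these genes had a series of peaks. When peaks no more than 20 kb apart were joined, the 1832 peaks fell into 1479 runs, of which 202 had 2 peaks, 56 had 3 and 11 had 4 or more, and 218 peaks were in runs of 3 or more. The longest runs had 6 peaks. The first covered 44.5 kb near *Gm17746* at chr12:25164739-25209267, with a highest score of 359.8, and the other 47.4 kb between *Cd47* and *Ift57* at chr16:49771606-49819042, with a highest score of 140.5. A run of 5 peaks in 41.9 kb lay between *Cox4i1* and *Irf8*, and another of 5 in 55.4 kb between *Chrna9* and *Rhoh*, which encodes a GTPase of lymphocytes. Runs of 3 peaks lay upstream of *Cbfa2t3* (11.1 kb) and of *Ccr9* (8.90 kb).

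Lists of genes of known roles were set beside the nearest genes, which made 6.38% of all genes tested and 2.22% of all genes in the expression table. Of 20 genes of the Lmo2 complex and Runx factors, 6 were the nearest gene of 17 of the peaks. They were *Tcf3* and *Tcf12*, which encode E proteins, *Gata3*, *Runx1*, *Runx3* and *Cbfa2t3* itself. Of 33 transcription factors of progenitors, 12 were nearest to 24 peaks, among them *Ikzf1*, *Mef2c*, *Ets1*, *Fli1*, *Bach2* and *Irf8*. Of 27 cytokine receptor and signalling genes, 13 were nearest to 23 peaks, including *Socs1*, *Socs2*, *Socs3* and *Cish*, which encode inhibitors of cytokine signalling.

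Of 27 genes of the T lineage and of Notch signalling, 7 were nearest to 9 peaks. They were *Notch2*, the Notch target *Hes1*, the pre-T-cell receptor gene *Ptcra*, the IL-2 receptor gene *Il2ra*, the kinase gene *Lck*, *Dntt*, which encodes terminal deoxynucleotidyl transferase, and *Cd7*. The scores of their highest peaks differed widely, with 167.2 at *Dntt* and 114.5 at *Ptcra* but 20.7 at *Notch2* and 23.0 at *Cd7*. Of 16 genes of the B lineage, 10 of them tested, 0 were nearest to any of these peaks, a count too small to set apart from the 6.38% of all genes tested. Of 20 myeloid and erythroid genes 2 were nearest to 4 peaks (*Itgam* and *Zfpm1*), and of 10 survival genes 3 to 5 peaks (*Mcl1*, *Bcl2l11* and *Pim1*).

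Expression was then compared at these nearest genes. The deposited QuantSeq values are reads per gene scaled to the same total in every library (CPM), and the libraries held 1705418 to 2095448 reads, so that 3 reads, the least taken as measurable, were worth 1.43 to 1.76 CPM. Of 1229 nearest genes found in the expression table, 737 (59.97%) had a mean above 1 CPM over the 15 libraries and were tested, against 20.8% of all genes. In sgCont the median of these 737 was 37.4 CPM (quartiles 13.2 and 102), and that of all 11554 genes tested was 25.6 CPM. Among the genes tested it was 35.1 CPM for those with 1 peak, 46.0 CPM for those with 2 or 3, and 130.3 CPM for the 18 with 4 or more. Over all matched nearest genes, with those under the filter, the medians were 6.97, 9.71 and 5.05 CPM (n = 939, 259 and 31), and 31.6% of the 1229 were listed at 0 in sgCont. The order by number of peaks was thus seen only among the genes that passed the filter, as a description over genes.

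The labels were checked on the targeted mRNAs. *Cbfa2t3* and *Zbtb1* mRNA were higher, not lower, in the libraries labelled with their own sgRNA, by 0.88 and 0.77 on the log2 scale (limma adjusted p = 1.7e-07 and 0.00102). *Cbfa2t2* and *Lmo2* mRNA did not pass the test in theirs (limma adjusted p = 0.412 and 0.956). Reads near the 3′ end do not read the cut sites or the protein, and the groups are called by their labels. Immunoblots in the study, made on an earlier day after sgRNA transduction, showed loss of the Lmo2, Zbtb1 and Cbfa2t3 proteins. Cbfa2t2 was not among the proteins blotted. *Ebf1* mRNA was at 305 to 366 CPM in the 3 sgCont libraries, so the 3′ reads do not show the deficiency. All 8 markers of lymphoid progenitors were above 1 CPM in sgCont, and 1 of 8 stromal markers was. The 8 stromal markers summed to 4.63 to 9.97 CPM in sgCont, and 4 of them (*Col3a1*, *Dcn*, *Lum* and *Postn*) were listed at 0 in every library.

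In the libraries labelled sgCbfa2t3, 11 of the 737 nearest genes (1.49%) passed the test against sgCont (limma on log2(CPM + 1), Benjamini-Hochberg adjusted p under 0.05 over all 11554 genes), of which 3 were higher and 8 lower. Over all genes tested the share was 0.537%, with 0.13% higher and 0.407% lower. The genes that rose were *Cbfa2t3*, *Itga4* and *Reep5*, and those that fell were *Ccr9*, *Jchain*, *Pik3cd*, *Lrba*, *Cd7*, *Neat1*, *Med13l* and *Ptpn1*. *Cbfa2t3* is the target of these sgRNAs and is counted in both shares. Fold changes on this scale understate those of weakly expressed genes, and in these bulk libraries fewer cells of a type and less RNA per cell cannot be told apart. Nearest genes were also expressed at higher levels than other genes. At 100 CPM or more in sgCont 4.23% of the 189 nearest genes passed, against 1.60% of all genes at that level, and below it 0.547% against 0.314%. The count was 5 without sgCont replicate 2 or without sgCont replicate 3, and 7 without sgCbfa2t3 replicate 1.

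*Ccr9*, the chemokine receptor that guides progenitors to the thymus, had 3 of these peaks upstream of its start site. Its level was 855, 910 and 1003 CPM in the sgCont libraries and 497, 574 and 641 CPM in those labelled sgCbfa2t3, a log2 fold change of −0.70 (SE 0.10, limma adjusted p = 4.6e-06). It was 308, 378 and 392 CPM in sgZbtb1 (−1.36, adjusted p = 5.4e-17) and 510, 680 and 764 CPM in sgCbfa2t2 (−0.52, adjusted p = 0.005). All libraries of these 3 groups were below all sgCont libraries, while those labelled sgLmo2 were at 879, 939 and 1126 CPM. The call in sgCbfa2t2 was lost with DESeq2 (−0.51, adjusted p = 0.073), with no filter on low values (limma adjusted p = 0.32), without sgCont replicate 3 (−0.46, limma adjusted p = 0.13) and without sgCbfa2t2 replicate 1 (−0.35, limma adjusted p = 0.18). The 3 comparisons share the same 3 sgCont libraries and are not independent of each other.

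*Jchain*, which encodes the joining chain of IgM and IgA and is also transcribed in lymphoid progenitors, had 1 peak 6971 bp upstream with a score of 117.1. It was at 853, 1159 and 1195 CPM in sgCont and at 606, 760 and 714 CPM in sgCbfa2t3 (log2 fold change −0.61, SE 0.11, limma adjusted p = 0.00093). In sgZbtb1 it was at 217, 318 and 256 CPM (−2.02, adjusted p = 4.9e-22). Neither group overlapped sgCont, and the sgZbtb1 libraries lay below the sgCbfa2t3 libraries as well. The sgCbfa2t3 call was lost without sgCont replicate 3, where the log2 fold change was −0.53, and with DESeq2 (adjusted p = 0.097).

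*Itga4*, the integrin alpha 4 chain used in homing and adhesion, had 1 peak 27514 bp upstream with a score of 27.8. It was at 344, 287 and 265 CPM in sgCont and rose to 506, 474 and 468 CPM in sgCbfa2t3 (log2 fold change 0.70, limma adjusted p = 2.3e-06). It was also higher in sgZbtb1, at 423, 446 and 445 CPM (0.56, adjusted p = 4.8e-05), and at 263, 198 and 212 CPM in sgLmo2 (−0.41, adjusted p = 0.11). *Reep5*, which encodes a protein that shapes the endoplasmic reticulum, was at 142, 151 and 174 CPM in sgCont, at 254, 222 and 226 CPM in sgCbfa2t3 (0.59, limma adjusted p = 0.00047) and at 263, 292 and 314 CPM in sgZbtb1 (0.89, adjusted p = 3.1e-09). For both genes all libraries of these 2 groups lay above all sgCont libraries.

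*Cbfa2t3* was itself the nearest gene of 3 of the peaks. Its strongest, 2898 bp upstream of its start site, had a score of 233.3 and lay 730 bp from a Zbtb1 peak. The mRNA was at 210, 189 and 172 CPM in sgCont and at 340, 344 and 364 CPM in sgCbfa2t3 (log2 fold change 0.88, SE 0.11, limma adjusted p = 1.7e-07), with no overlap. In sgZbtb1 it was at 171, 192 and 135 CPM (−0.21, adjusted p = 0.33), which overlapped sgCont. As this gene is the target of the sgRNAs, its level is also a check of the labels and not only a result on a nearest gene.

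*Cd7*, a surface marker of early lymphoid cells, was at 9.87, 34.7 and 15.8 CPM in sgCont and at 3.75, 6.28 and 2.21 CPM in sgCbfa2t3 (log2 fold change −1.96, SE 0.45, limma adjusted p = 0.018), a gene near the floor in this group. In sgZbtb1 it was at 1.12, 0.956 and 4.91 CPM (−2.69, adjusted p = 2.7e-05), with 2 of these libraries below the floor of 3 reads. *Lrba*, a vesicle trafficking gene, was at 59.8, 78.1 and 94.4 CPM in sgCont and 38.6, 48.0 and 44.3 CPM in sgCbfa2t3 (−0.80, limma adjusted p = 0.014). Both were below sgCont in every library. Summed T-cell markers (7 genes, 1 of them above 1 CPM in sgCont and *Cd8a* at 0 throughout) were at 5.28 to 10.5 CPM in sgCont, 0.553 to 4.83 CPM in sgCbfa2t3 and 0 to 1.96 CPM in sgZbtb1. They were also below sgCont without overlap in sgCbfa2t2 (1.06 to 3.82 CPM) and sgLmo2 (1.1 to 4.89 CPM), where *Cd7* did not pass (limma adjusted p = 0.770 and 0.998). Their part in these results was not tested. Each of the *Cd7* and *Lrba* calls was lost without sgCbfa2t3 replicate 1, sgCont replicate 2 or sgCont replicate 3, and that of *Cd7* also without sgCbfa2t3 replicate 3, with log2 fold changes of −1.49 to −2.03 for *Cd7* and −0.64 to −0.78 for *Lrba*.

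The other 4 genes that fell in sgCbfa2t3 changed less or varied more. *Pik3cd*, the catalytic delta subunit of PI3 kinase, was at 240, 278 and 249 CPM in sgCont and 183, 182 and 165 CPM in sgCbfa2t3 (log2 fold change −0.53, limma adjusted p = 0.0023). *Neat1*, a nuclear lncRNA, was at 45.3, 86.2 and 91.5 CPM and 25.2, 30.3 and 49.3 CPM, so that the groups overlapped (−1.06, limma adjusted p = 0.019). *Med13l*, a Mediator kinase module gene, had −0.36 and *Ptpn1*, a tyrosine phosphatase of cytokine signalling, had −0.42 (limma adjusted p = 0.025 and 0.028). Each of these 4 calls was lost when 1 of the libraries was left out, *Pik3cd* without sgCont replicate 2 (−0.47). For *Neat1*, *Med13l* and *Ptpn1* the call was lost without sgCont replicate 2, sgCont replicate 3 or sgCbfa2t3 replicate 1, with log2 fold changes of −0.86 to −0.92, −0.30 to −0.37 and −0.31 to −0.43. It was also lost without sgCbfa2t3 replicate 2 for *Neat1* and *Med13l*, and without sgCont replicate 1 or with edgeR (adjusted p = 0.055) for *Med13l*. The other calls in this group, those of *Ccr9*, *Itga4*, *Reep5* and *Cbfa2t3*, were kept whichever library was left out. Summed erythroid markers (6 genes, 1 above 1 CPM in sgCont, *Hba-a1* and *Alas2* at 0 throughout) were at 116 to 148 CPM in sgCont and 185 to 277 CPM in sgCbfa2t3, and their part in these results was not tested.

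**Figure D5:**
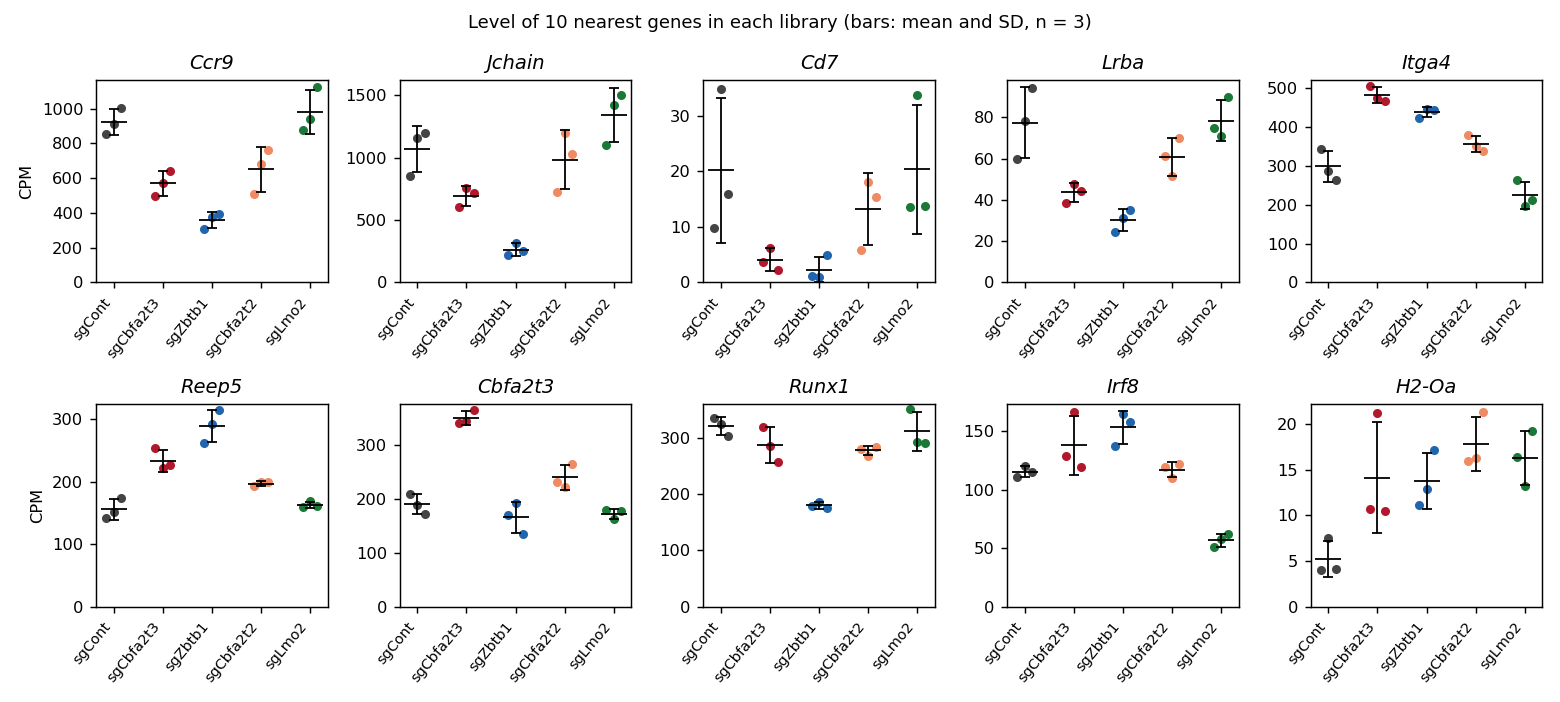
Level (CPM, vertical axis) of 10 nearest genes of intergenic Cbfa2t3-only peaks in the 15 QuantSeq libraries by sgRNA group, with 1 point per library and the mean and SD of 3 libraries. *Ccr9* and *Jchain* are lower in the libraries labelled sgCbfa2t3 and sgZbtb1 than in sgCont, *Itga4* and *Reep5* are higher, and *Irf8* is at 50.9 to 61.9 CPM in sgLmo2 against 111 to 120 CPM in sgCont.

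With the thresholds of the study (unadjusted p under 0.05, a change of more than 2-fold and a mean above 10 CPM in either group), 9 nearest genes (1.22%) passed in sgCbfa2t3, 2 higher and 7 lower, against 0.658% of all genes (0.121% higher and 0.537% lower). They were *H2-Oa* and *Ajap1* among the higher ones and *Cd7*, *Neat1*, *Cd163l1*, *Cd2*, *Tnfsf11*, *Ptpn5* and *Lima1* among the lower ones. Of these only *Cd7* and *Neat1* also passed the adjusted threshold of the limma test. The median log2 fold change was −0.05 over the nearest genes and −0.01 over all genes. At an unadjusted p under 0.05 in limma, 80 nearest genes (10.9%) were lower and 35 (4.75%) higher, against 6.27% and 4.32% of all genes tested.

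The same nearest genes were examined in the libraries labelled sgZbtb1, although no Zbtb1 peak shared a base with the peaks. Of the 737 genes, 60 (8.14%) passed the limma test, 17 higher and 43 lower, against 4.79% of all genes (1.85% higher and 2.94% lower). At 100 CPM or more in sgCont the share was 16.4%, against 11.75% of all genes at that level, and below it 5.29% against 3.34%. Of the 262 genes with a peak within 10 kb of the start site, 10.3% passed in sgZbtb1 and 2.29% in sgCbfa2t3, where the share over all genes was 0.537%. At 10 to 100 kb the shares were 6.79% and 1.17% of 427 genes, and beyond 100 kb 8.33% and 0% of 48 genes, so that the share in sgZbtb1 did not fall steadily with distance. The median log2 fold change in sgZbtb1 was −0.09 over the nearest genes and −0.03 over all genes. Summed lymphoid progenitor markers (8 genes, all above 1 CPM in sgCont) were at 605 to 649 CPM in sgZbtb1 and 748 to 889 CPM in sgCont. Summed B-cell markers (6 genes, 2 above 1 CPM in sgCont, *Cd79a* and *Ms4a1* at 0 throughout) were at 189 to 229 CPM and 253 to 419 CPM. Both sums were lower in sgZbtb1 without overlap, and their part in these results was not tested. Whether these genes also had Zbtb1 peaks elsewhere was not part of this comparison.

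Besides *Ccr9*, *Jchain* and *Reep5*, the nearest genes with the smallest p in sgZbtb1 were *Actr3b*, *Mgst2*, *Runx1*, *Gprin3*, *Cd163l1*, *Ptpn1* and *Adgre1*, all lower. *Runx1*, a regulator of hematopoietic stem and progenitor cells, had 4 peaks, the nearest 78110 bp upstream, and was at 334, 324 and 303 CPM in sgCont and 178, 186 and 175 CPM in sgZbtb1 (log2 fold change −0.83, SE 0.10, limma adjusted p = 3.3e-09). In sgCbfa2t3 it was at 319, 285 and 256 CPM (−0.16, adjusted p = 0.59). *Cd163l1*, a scavenger receptor gene, was at 23.2, 13.9 and 19.9 CPM in sgCont and at 2.23, 0 and 0.491 CPM in sgZbtb1 (limma adjusted p = 1.6e-08). As 2 of these 3 libraries were below the floor of 3 reads, the size of its fall depends on the pseudocount (−3.54 with 1 and −5.18 with 0.1). Both were without overlap between sgZbtb1 and sgCont.

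Other nearest genes also fell in sgZbtb1, among them the listed genes *Lck* and *Bcl11a*. *Lck*, the kinase of T-cell receptor signalling, went from 73.2, 83.9 and 92.1 CPM to 56.4, 40.2 and 39.8 CPM (log2 fold change −0.87, limma adjusted p = 0.00012). *Bcl11a*, a transcription factor of lymphoid progenitors, went from 38.9, 57.3 and 38.1 CPM to 23.5, 32.5 and 19.1 CPM (−0.82, limma adjusted p = 0.026). It was also below all sgCont libraries in the other 3 groups without passing the test, at 18.7, 26.9 and 17.5 CPM in sgLmo2 (−1.05, limma adjusted p = 0.11), 30.0, 28.5 and 23.3 CPM in sgCbfa2t3 (−0.68, limma adjusted p = 0.24) and 34.6, 34.4 and 29.0 CPM in sgCbfa2t2 (−0.42, limma adjusted p = 0.60). The 4 comparisons share the sgCont libraries. *Cd47*, which is in none of the lists and had 7 peaks, fell by 0.31 (limma adjusted p = 0.0061). *Dusp6*, an inhibitor of ERK signalling, was the member of the cytokine list besides *Itga4* that rose (0.61, limma adjusted p = 0.045), and its call was lost with DESeq2 (adjusted p = 0.071).

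In sgCbfa2t2, 3 nearest genes (0.407%) passed, against 0.147% of all genes (0.026% higher and 0.121% lower), which were *Ccr9* (lower), *H2-Oa* and *Plac8* (higher). *H2-Oa*, a chain of an MHC class II chaperone, was at 4.07, 7.52 and 4.10 CPM in sgCont and 16.0, 16.2 and 21.3 CPM in sgCbfa2t2 (log2 fold change 1.63, limma adjusted p = 0.016). It was at 10.7, 21.1 and 10.5 CPM in sgCbfa2t3 (1.25, adjusted p = 0.075), above sgCont in every library without passing the test. In sgZbtb1 it was at 11.2, 12.9 and 17.2 CPM (1.27, limma adjusted p = 0.016) and in sgLmo2 at 16.4, 13.2 and 19.2 CPM (1.5, limma adjusted p = 0.11). *H2-Oa* was thus above sgCont in every library of all 4 groups, and the 4 comparisons share the 3 sgCont libraries. The sgCbfa2t2 call of *H2-Oa* was lost when any library but sgCont replicate 2 and sgCbfa2t2 replicate 1 was left out (1.5 to 1.69). *Plac8* changed little (0.30, limma adjusted p = 0.045), and its call was lost with another pseudocount (limma adjusted p = 0.060) or other size factors (limma adjusted p = 0.073). Summed erythroid markers were at 153 to 183 CPM in sgCbfa2t2 against 116 to 148 CPM in sgCont, and summed T-cell markers at 1.06 to 3.82 CPM against 5.28 to 10.5 CPM. Neither sum overlapped between the groups, and their part in these results was not tested. The count was 0 without sgCont replicate 3, and 1 without sgCont replicate 1 or sgCbfa2t2 replicate 2.

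In sgLmo2, 1 nearest gene (0.136%) passed, against 0.0173% of all genes (0.00866% higher and 0.00866% lower). This was *Irf8*, with 5 peaks, which was at 111, 120 and 116 CPM in sgCont and at 50.9, 58.2 and 61.9 CPM in sgLmo2 (log2 fold change −1.01, SE 0.13, limma adjusted p = 1.2e-06). In sgCbfa2t3 *Irf8* was at 129, 166 and 119 CPM and in sgZbtb1 at 137, 164 and 158 CPM (limma adjusted p = 0.52 and 0.059). The rise in sgZbtb1 passed with edgeR (adjusted p = 0.031) and DESeq2 (adjusted p = 0.036). The sgLmo2 libraries thus stood apart from all others at this gene. Summed erythroid markers were at 71.2 to 113 CPM in sgLmo2 against 116 to 148 CPM in sgCont, and summed myeloid markers (7 genes, 5 above 1 CPM in sgCont, *Elane* at 0 throughout) at 9.31 to 28.3 CPM against 28.1 to 31.4 CPM. Their part in this result was not tested. Without sgLmo2 replicate 1 the count of nearest genes that passed was 2.

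Several listed genes did not pass the test in sgCbfa2t3, whether their highest peak was strong or weak. *Dntt*, whose peak had a score of 167.2, was at 71.4, 85.1 and 78.0 CPM in sgCont and 131, 95.9 and 120 CPM in sgCbfa2t3, all higher (log2 fold change 0.55, limma adjusted p = 0.10). *Socs3*, with a peak of score 188.2, was at 16.3, 15.6 and 12.3 CPM against 25.7, 17.1 and 23.8 CPM (0.55, limma adjusted p = 0.53). *Hes1*, whose highest peak had a score of only 24.2, was at 0, 0 and 1.17 CPM in sgCont and 5.36, 7.99 and 1.66 CPM in sgCbfa2t3 (2.04, limma adjusted p = 0.14), where 2 of the 3 libraries were above the floor of 3 reads. All 3 sgCont libraries were below that floor, so the size of the rise depends on the pseudocount. *Ptcra*, with a peak of score 114.5, was listed at 0 in all 15 libraries.

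By list, the T-lineage and Notch genes had 2 of 19 tested genes lower and 0 higher in sgCbfa2t3, where 0.407% of all genes were lower and 0.13% higher. In sgZbtb1 the same list had 5 lower and 0 higher, where 2.94% of all genes were lower and 1.85% higher, with *Cd7* among those near the peaks in both and *Lck* in sgZbtb1. The B-lineage genes, none of them a nearest gene, had 1 of 10 lower in sgCbfa2t3 and 4 lower in sgZbtb1. Of 27 progenitor transcription factors tested, 0 passed in sgCbfa2t3 and 4 were lower in sgZbtb1. At an unadjusted p under 0.05 in limma, 1 of the 27 was higher and 2 were lower in sgCbfa2t3, and edgeR and DESeq2 each called 1 higher and 0 lower after adjustment. In sgZbtb1 6 of the 27 were higher and 8 lower at an unadjusted p under 0.05 in limma, and after adjustment edgeR called 2 higher and DESeq2 1 higher, each beside 4 lower. At this unadjusted threshold in limma 7.37% of all genes tested were higher and 10.2% lower in sgZbtb1, and 4.32% and 6.27% in sgCbfa2t3. In the T-lineage list limma gave 2 higher and 4 lower at an unadjusted p under 0.05 in sgCbfa2t3, and 0 higher and 9 lower in sgZbtb1. After adjustment edgeR and DESeq2 called 0 higher in either group. In the lower direction this list had 2 genes in sgCbfa2t3 with edgeR and 1 with DESeq2, which gave *Cd7* no adjusted p, and 6 and 5 in sgZbtb1. The B-lineage list had 1 lower in sgCbfa2t3 with edgeR and 2 with DESeq2, and 4 in sgZbtb1 with either. Of the 26 cytokine genes, 1 rose (*Itga4*) and 1 fell (*Ccr9*) in sgCbfa2t3, both of them nearest genes. These lists were chosen with earlier results of these data known, and their counts are descriptions.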

How the data were processed

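Peaks and expression were taken from the deposited tables. For ChIP-seq, cells were fixed with disuccinimidyl glutarate and formaldehyde, and the authors mapped single reads to mm10 with Bowtie 1.1.1, keeping reads with up to 10 places, called peaks with HOMER against input, and kept those reproducible in 2 replicates as 1 list per factor. The deposited peak score is a normalized read number, and the deposited focus ratio is a fraction. For QuantSeq, the authors trimmed reads with fastp, mapped them with STAR and scaled each library to the same total. The authors call these values TPM, but they are CPM: of the values under 100 reads, 100% were whole reads within 0.05 reads. The deposited means, SDs, log2 fold changes and test values of the authors' own comparisons were not used. A line without a gene identifier, worth 1 read in each library (0.478 to 0.586 CPM), was left out. The plan was written for TPM and kept.

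A peak was taken as shared when at least 1 base overlapped. Motif letters were searched on both strands of GRCm38 in 200 bp windows and in windows 5 kb to each side. Shares have exact (Clopper-Pearson) 95% binomial intervals and differences have Newcombe intervals, for counting error only. Nearest genes are those of the deposited annotation. Of the 1832 peaks, 1681 were matched to the expression table, 1609 by identifier and 72 by symbol. Genes with a mean above 1 CPM (11554 of 55421) entered the limma test (version 3.58.1, R 4.3.3, trend, two-sided, log2(CPM + 1), all 15 libraries in 1 fit, Benjamini-Hochberg over all genes tested). Replicates of a group differed by more than the sampling noise (chi-square per degree of freedom 2.23 to 3.60). The steps were tested on simulated data.

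Named in the text are the 10 highest-scoring peaks, genes with 4 or more peaks, called nearest genes (at most 20 in sgCbfa2t3 and 10 in each other group by p) and nearest genes of the lists, as examples where there were many. The genes of the 2-fold rule, of receptor loci and of peak runs were named outside this. The peaks and the gene lists were chosen with earlier results of these data known. Alternatives were another pseudocount, filter, scaling, set of libraries and peak threshold, edgeR 4.0.16 and DESeq2 1.42.0 on recovered reads, and, chosen after seeing the data, peaks outside repeats and distinct sequences. Python 3.11.15 with pandas 2.3.3, numpy 2.4.6, scipy 1.17.1, pysam 0.24.0 and matplotlib 3.10.9 was used.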

Additional observations from a re-analysis of the deposited data

How the results depend on the processing

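The number of intergenic Cbfa2t3-only peaks was 1065 at a score of 30 or more. It was 1781 when a Zbtb1 peak within 1 kb counted as shared, 1865 with an overlap of at least 50% of both peaks and 1903 with centres within 100 bp. In 100 bp windows the share with the Runx core was 28.7%, with CAGCTG 35.7%, with CAGATG 22.4% and with CAGGTG 30.8%. At a score of 30 or more it was 54.9% for CAGCTG, 37.7% for CAGATG and 47.6% for CAGGTG, and outside annotated repeats it was 38.9% for the Runx core and 52.7% for CAGCTG.

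The count of nearest genes that passed in sgCbfa2t3 (11) was 5 without a filter on low values and 5 to 12 when 1 library was left out. In sgZbtb1 (60) it was 37 without the filter and 41 to 53 when 1 library was left out. In sgCbfa2t2 (3) it was 1 with DESeq2 (which gave *H2-Oa* no adjusted p), 1 for peaks with a score of 30 or more, 0 without the filter in limma, and 0 to 3 when 1 library was left out. At an unadjusted p under 0.05, 23 nearest genes (3.12%) were higher and 37 (5.02%) lower in sgCbfa2t2, against 4.44% and 5.12% of all genes. In sgLmo2 (1) it was 1 to 2 when 1 library was left out. The count by the 2-fold rule in sgCbfa2t3 (9) was 5 with a mean above 10 CPM, 5 for peaks with a score of 30 or more, and 7 to 11 when 1 library was left out. The cause was not tested. Under the other scaling, pseudocounts, edgeR and the 6 libraries alone these counts stayed within 1.5 times the reported ones, and no called gene named in sgCbfa2t3, sgCbfa2t2 or sgLmo2 changed direction. With the replicate number as a block the counts were 14 in sgCbfa2t3, 80 in sgZbtb1 and 9 in sgLmo2. Deviations from the group means had correlations of −0.00720 to 0.0656 over 30 pairs of libraries with the same number (mean 0.0279). Over 60 pairs with different numbers they were −0.0608 to 0.0320 (mean −0.0139). These small correlations over all genes cannot decide whether libraries with the same number were paired.

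The peak lists give no read depth or replicate values. Genes under 3 reads, or 1.43 to 1.76 CPM, cannot be compared at this depth.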
